A study of Homo sapiens with 6 samples.

Results

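Doublecortin, tau and their relatives are microtubule-associated proteins, which bind along microtubules or hold free tubulin. The set described here holds 10 genes listed by name, with earlier results of these data known. They are DCX, DCLK1, DCLK2, MAPT, MAP1A, MAP1B, MAP2, MAP4, MAP6 and STMN1. Of these, 9 had a row among the 31785 rows analysed, and MAPT, the tau gene, was not analysed here. The RNA came from D283 Med cells, an established line of medulloblastoma, which is a childhood brain tumour. The 3 wild-type (WT) libraries came from cells whose genotype is given as WT, and the 3 knockdown libraries from the same line after knockdown of MSI1. That gene encodes Musashi-1, which binds mRNAs and is found in neural progenitors. The labels give 1 line, no drug and no time point for either group. How the knockdown was made, whether WT cells carried a control construct and whether the libraries of a group were separate cultures were not stated in the labels, so p-values measure the spread between these libraries, which may be technical.

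Knockdown libraries appear as KD1 to KD3. The other 3 columns bear the names VV1 to VV3, a heading the labels do not explain, and were taken as WT because they are the only columns left for that group. WT libraries held between 17299671 and 38790342 reads, VV2 being the deepest, and knockdown libraries between 18895997 and 24442276. MSI1 itself had 1586, 1572 and 1378 normalised reads in VV1, VV2 and VV3 and 1385, 1197 and 1281 in KD1, KD2 and KD3, which is 85.2% of WT (limma, adjusted p = 0.304), so the fall of the targeted mRNA did not pass the test. MSI2, the second Musashi gene, stood at 75.1% of WT (limma, adjusted p = 0.198), a difference of −0.40 on the deposited log2-like scale. MSI2 lies on the long arm of chromosome 17, where the median difference over 578 genes was −0.33 and 88.9% were lower. The part of that arm in the MSI2 value was not tested. Markers of Group 3 and 4 medulloblastoma were abundant, with a summed level of 52569 to 71858 normalised reads in WT and 67107 to 76449 in knockdown over 8 genes, although EOMES, LMX1A and BARHL1 averaged 14.6, 0.98 and 1.02 normalised reads in WT. Among the neuron markers ELAVL4 was listed at 0 in all WT libraries and RBFOX3 averaged 23.1 normalised reads there. The 7 neuron markers summed to 5532 to 10367 normalised reads in WT and 5448 to 6048 in knockdown. All 4 that passed the filter on low values were lower in knockdown, by −0.73 to −0.08 with a median of −0.21. None of these 4 was called.

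Microtubules are built from tubulin and set the shape, polarity and transport of a neuron. Doublecortin and its kinases stabilise them in migrating neurons, MAP2 marks dendrites, tau marks axons, and MAP1A and MAP1B bind along the shaft, MAP1B being the form of growing axons. Stathmin does the opposite and binds free tubulin dimers, which promotes microtubule loss. DCX and MAPT are reported mRNA targets of Musashi proteins, which bind RNA at a UAG core.

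The UAG core was counted in the 3′UTR of 1 reference transcript per gene (GENCODE 29, GRCh38), on the sense strand only, and the motif is written TAG below, as in the reference. Of the 3′UTRs of 15910 coding genes in the table, 92.2% held it at least once, with a median of 10.6 per 1000 bases, so its presence alone does not set a gene apart. The windows of 30 bases with the most TAG are shown for the 5 genes with the largest differences between the groups, to let a reader see the letters a Musashi protein could meet. TAG is in capitals, and all 5 windows lie within 1 exon of the 3′UTR.
DCX: acttTAGtatTAGccTAGattgaattaTAG
STMN1: tTAGaagctaatgTAGgactgtaTAGgTAG
MAP2: caatttTAGatatgtgaaagTAGatgtTAG
MAP1B: TAGccaacccaactgacttctgcTAGgTAG
MAP1A: tgggggaggggacaaatTAGaaTAGgaTAG

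The DCX window lies at chrX:111298709-111298738 on the minus strand and begins 2949 bases into a 3′UTR of 7908 bases. The STMN1 window lies at chr1:25900889-25900918 on the minus strand, the MAP2 window at chr2:209731279-209731308, the MAP1B window at chr5:72205511-72205540 and the MAP1A window at chr15:43530439-43530468, these last on the plus strand. The windows of DCX and STMN1 hold 4 TAG each. The best window held 4 or more in 5.78% of all 3′UTRs. The same was true of 0.0291% of 893844 windows of 30 bases, which do not cover every possible start. The windows shown are each the best of their 3′UTR, so that share does not measure how rare they are. Neither share allows for length, and the DCX 3′UTR has 7908 bases against a median of 1010. The windows of MAP2, MAP1B and MAP1A hold 3, which 34.0% of 3′UTRs reach.

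Over the whole 3′UTR, TAG density was 16.7 per 1000 bases in MAP2, 15.6 in STMN1, 15.4 in DCLK1, 14.3 in DCX and 13.4 in MAP1B, at percentiles 89.5, 85.0, 84.2, 77.2 and 70.6 among all coding genes. It was 10.7 in MAP1A (percentile 50.7), and 7.09, 6.87 and 6.61 in MAP6, MAP4 and DCLK2 (percentiles 27.1, 25.9 and 24.5). The MAP6 density rests on 1 TAG in a 3′UTR of only 141 bases. MAP4 and DCLK2 hold 8 each, in 1164 and 1210 bases. The 4 densest 3′UTRs, of MAP2, STMN1, DCLK1 and DCX, belonged to genes with higher means in knockdown. Of the other 5 genes, MAP1B, MAP1A, MAP6 and MAP4 had lower values in knockdown and DCLK2 higher ones. Most of these directions did not pass a test, as given below, and a relation of density to direction was not tested. Base composition also differed: the share of A and T was 65.2% in MAP2 and 62.8% in MAP1B, against 41.5% in MAP4 and 47.0% in DCLK2. It did not follow density throughout. The share was 59.2% in STMN1, 59.1% in DCLK1 and 58.9% in DCX, all denser than MAP1B. It was 52.5% in MAP6 and 48.1% in the denser MAP1A. A match describes these letters only and is not evidence of binding.

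**Figure D1:**
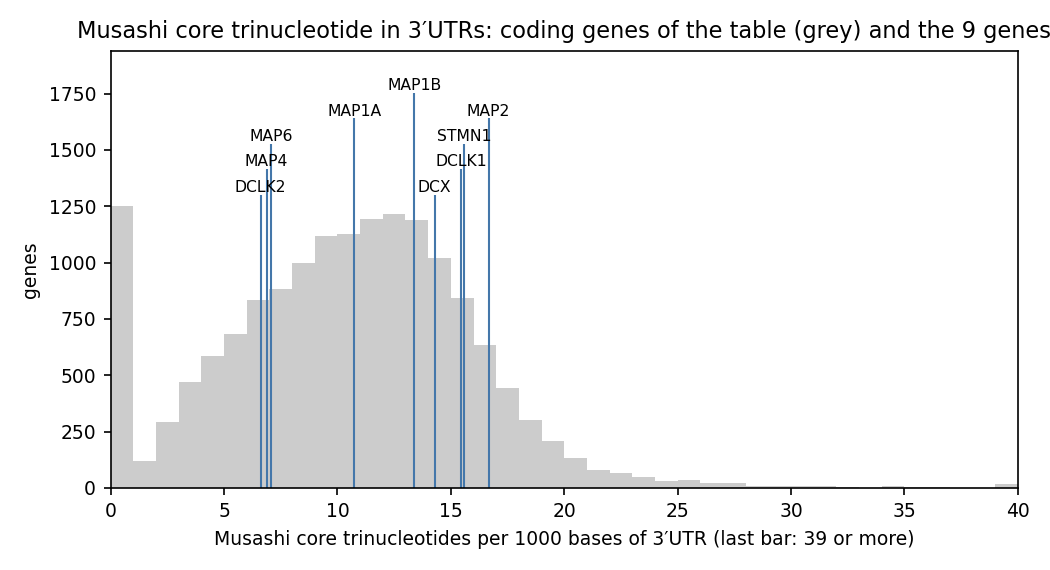
Number of coding genes of the table (grey bars) by how many TAG trinucleotides, the Musashi core, their 3′UTR holds per 1000 bases, with the 9 genes as blue lines. MAP2, STMN1 and DCLK1 lie at 16.7, 15.6 and 15.4, above the median of 10.6, while MAP6, MAP4 and DCLK2 lie between 6.61 and 7.09. The MAP6 density rests on 1 TAG in 141 bases. The last bar pools all densities from 39 up.

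Levels of different genes were compared as normalised reads per 1000 bases of exon. In WT, STMN1 was first at 2367 ± 841, followed by MAP4 at 832 ± 91.8 and MAP1B at 455 ± 27.6 (SD, n = 3), and the WT ranges of these 3 genes did not overlap. MAP1A at 122 ± 31.4 and DCLK2 at 112 ± 21.6 overlapped each other. MAP6 stood at 19.5 ± 10.5, below both, and MAP2 at 1.97 ± 0.69, DCLK1 at 1.61 ± 0.93 and DCX at 0.64 ± 0.73 formed an overlapping bottom group. The cells thus held far more mRNA of the ubiquitous MAP4 and the tubulin-sequestering stathmin than of the dendritic marker MAP2 and doublecortin. Protein levels were not part of these data.

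Over all 9 genes, 5 were higher and 4 lower in knockdown, with a median difference of 0.12 on the deposited log2-like scale against −0.02 over all 31785 rows. Differences are knockdown minus WT on that scale, which understates the change of weakly expressed genes, and folds compare mean normalised reads. The filter on low values, a mean at least 1 above the lowest value or 27.6 normalised reads, was passed by 7 of the 9 genes and not by DCX and DCLK1. Among the 7, MAP1B fell and none rose (limma, adjusted p under 0.05), where 4.1% of the 13558 genes tested were called, 2.32% lower and 1.78% higher. At an unadjusted p under 0.05, which 22.0% of genes reached, 1 of the 7 was higher (MAP2) and 2 were lower. Without the filter, DCX rose and MAP1A and MAP1B fell, 3 of 9, where 2.07% of 31785 rows were called, 0.849% higher and 1.22% lower. The groups did not overlap in DCX, MAP1B and MAP2, 3 of 9 genes, against 16.3% of all rows and 27.8% of those past the filter. MAP2 passed the filter only through knockdown, since its WT mean of 22.8 normalised reads lay below it, so its place among the 7 supports nothing about its direction. In bulk RNA, fewer cells that express a gene and less RNA per cell cannot be told apart.

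**Figure D2:**
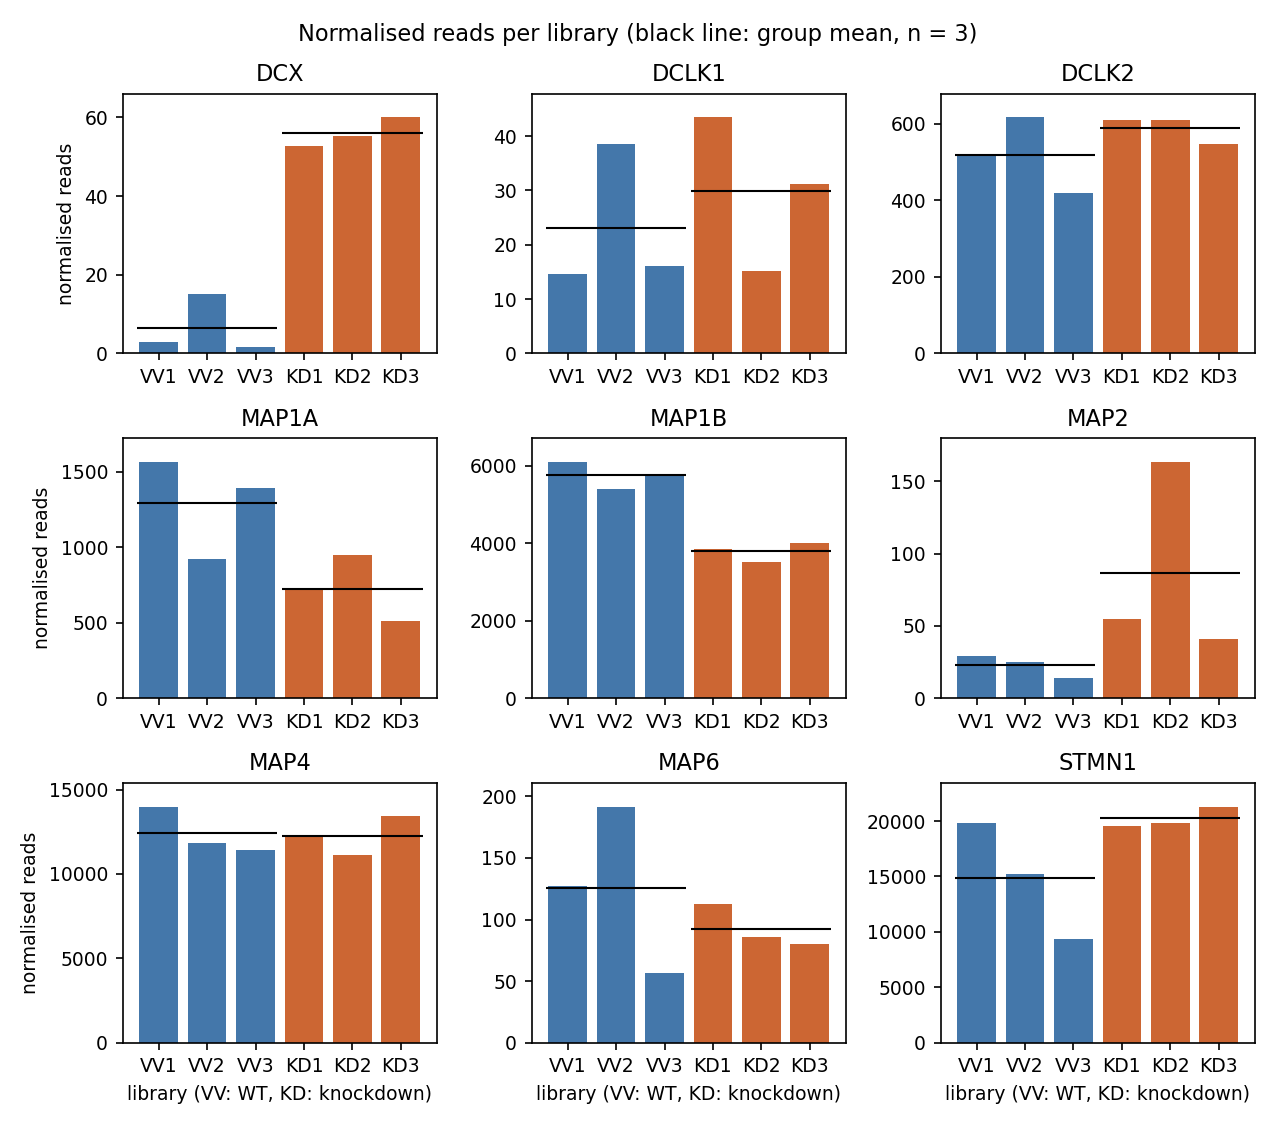
Normalised reads of each gene in the 3 WT libraries (blue, VV1 to VV3) and the 3 knockdown libraries (orange, KD1 to KD3), with the group mean as a black line; each panel has its own axis from 0. DCX lies at 52.6 to 60.1 in knockdown and at 1.54 to 15.1 in WT, MAP1B lies lower in every knockdown library, and the MAP2 mean of knockdown is carried by KD2 at 163.

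DCX, on the minus strand of chromosome X at 111293779 to 111412429 (GRCh38), encodes doublecortin, the microtubule stabiliser of newborn migrating neurons. It had 2.93, 15.1 and 1.54 normalised reads in VV1, VV2 and VV3, from 2, 24 and 2 reads. In KD1, KD2 and KD3 it had 52.6, 55.3 and 60.1, from 52, 44 and 56 reads. The knockdown libraries agreed closely with each other, while VV2 held several times the level of the other WT libraries and still lay below every knockdown library.

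The mean of DCX rose 8.57-fold, from 6.53 ± 7.48 to 56.0 ± 3.78 normalised reads (SD, n = 3). Pooling the reads of each group, 28 against 152, gave a depth-weighted ratio of 7.14 with an exact 95% interval of 4.75 to 11.1, which covers counting error only. Without VV2, whose 24 of the 28 WT reads set that ratio, it was 27.8 (10.6 to 103). The ratio was 6.22 (4.08 to 9.83) without VV1 and 4.88 (3.21 to 7.72) without VV3. Since the mean over 6 libraries fell short of the filter, DCX was tested only in the fit without it, where the difference was 0.96 (SE 0.16, limma adjusted p = 0.00249). Of the 18227 rows below the filter, 0.351% were called in that fit and 0.0988% were called higher, and in 7.81% the groups did not overlap. The call was lost without VV1 (limma, adjusted p = 0.0556) and when that fit was quantile normalised (0.0743). Even in knockdown the level remained low, at 5.49 ± 0.37 normalised reads per 1000 bases of exon, below the WT level of MAP6.

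DCLK1 and DCLK2 encode doublecortin-like kinases, which join doublecortin domains to a kinase domain. DCLK1 had 14.6, 38.5 and 16.1 normalised reads in VV1, VV2 and VV3 and 43.5, 15.1 and 31.1 in KD1, KD2 and KD3. The groups overlapped throughout, with 10 to 61 reads per library, and the difference of 0.12 (SE 0.17) did not pass (limma without the filter, adjusted p = 0.757), with a 95% interval of −0.23 to 0.48. The pooled read ratio was 1.20 (exact 95% interval 0.88 to 1.63), 1.98 (1.30 to 3.10) without VV2, 1.09 (0.794 to 1.496) without VV1 and 0.99 (0.71 to 1.38) without VV3. The fitted difference ran from 0.01 without KD1 to 0.26 without VV2 (limma, adjusted p = 0.985 and 0.629).

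DCLK2 was far more abundant than its paralogs, with 518, 617 and 418 normalised reads in WT and 611, 609.9 and 548 in knockdown. Its difference of 0.17 (SE 0.14, 95% interval −0.14 to 0.48) did not pass (limma, adjusted p = 0.522), and VV2 exceeded all 3 knockdown libraries. It was 0.28 without VV2 and 0.05 without VV3 (limma, adjusted p = 0.306 and 0.864). The DCX difference of 0.96 on the deposited scale lay outside the intervals of both kinases. That number stands for a smaller fold in the more abundant DCLK2, so it does not compare their folds. The DCLK2 interval came from the fit with the filter, those of DCX and DCLK1 from the fit without it. Whether DCX differed from its paralogs in response was not tested.

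MAP1B, on the plus strand of chromosome 5 at 72107234 to 72209570, encodes the large MAP of growing axons. It had 6103, 5406 and 5749.8 normalised reads in VV1, VV2 and VV3 and 3859, 3514 and 4016 in KD1, KD2 and KD3. Every knockdown library lay below every WT library, and the spread within each group was small. MAP1B fell to 66.0% of WT, from 5753 ± 348 to 3796 ± 257 (SD, n = 3; difference −0.59, SE 0.11, 95% interval −0.84 to −0.33, limma adjusted p = 0.0257). With 2794 to 8572 reads per library, counting error was not the limit. The direction held without each library in turn, at −0.53 to −0.63, but the call was lost without VV2 (limma, adjusted p = 0.0506), KD1 (0.102), KD2 (0.0905) or KD3 (0.0855).

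MAP1A, on the plus strand of chromosome 15 at 43510958 to 43531620, encodes the MAP1 form that prevails in mature neurons. It had 1565, 919.5 and 1392 normalised reads in VV1, VV2 and VV3 and 716, 947 and 508 in KD1, KD2 and KD3. VV2 lay just below KD2, so the groups overlapped, and otherwise WT was higher. The mean was 1292 ± 334 in WT and 724 ± 219.8 in knockdown (SD, n = 3), 1.79-fold lower, a difference of −0.76 (SE 0.22) that did not pass with the filter (limma, adjusted p = 0.0816). It passed without the filter (0.0388) and with library weights (0.0346, where 8.95% of genes were called), 2 of 16 alternatives. With a library left out it passed in 0 of 6 fits, from −0.97 (0.0568) without VV2 to −0.56 (0.262) without KD3. With the replicate number as a block the adjusted p was 0.121 (limma).

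Both MAP1 genes were thus lower in knockdown, and with the filter the fall of MAP1B alone was called. Per length, MAP1A held 30.5%, 20.2% and 28.8% of the MAP1B level in VV1, VV2 and VV3 and 22.1%, 32.0% and 15.0% in KD1, KD2 and KD3, so their proportion overlapped between the groups. The median difference over the 593 genes tested on chromosome 5 was −0.02 and over the 421 on chromosome 15 it was −0.03.

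MAP2 encodes the MAP of dendrites, a standard marker of differentiated neurons. It had 29.3, 25.2 and 13.8 normalised reads in VV1, VV2 and VV3 and 54.6, 163 and 40.8 in KD1, KD2 and KD3. The groups did not overlap, and KD2 stood apart from the other knockdown libraries. The mean was 3.79-fold higher, 86.3 ± 67.2 against 22.8 ± 8.02 (SD, n = 3), from 78 reads in WT and 222 in knockdown. The difference of 0.71 (SE 0.24) did not pass (limma, adjusted p = 0.121), and without KD2 it was 0.39 (0.229).

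MAP4, the MAP found in most cell types, gave the flattest values of the set. It had 13993, 11846 and 11442 normalised reads in WT and 12239, 11145 and 13432 in knockdown. The groups overlapped, with VV1 above every knockdown library and KD2 below every WT library, and the difference was −0.02 (SE 0.14, limma adjusted p = 0.959) with a 95% interval of −0.32 to 0.29. A change of the size seen in MAP1B lay outside that interval.

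MAP6, the stable tubule-only protein that protects microtubules from cold, had 127, 192 and 56.8 normalised reads in WT and 112, 85.5 and 80.5 in knockdown. The knockdown values lay within the WT range. The difference of −0.19 (SE 0.22) did not pass (limma, adjusted p = 0.661). Without VV2 it was 0.04 (0.937 by limma), and without VV3 it was −0.46 (0.145).

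STMN1, stathmin, was the most abundant of the 9 genes. It had 19866, 15238 and 9364 normalised reads in VV1, VV2 and VV3 and 19545, 19851 and 21303 in KD1, KD2 and KD3. The knockdown libraries lay close together and VV1 reached their level, while VV3 held less than the rest. The mean was 1.37-fold higher in knockdown, 20233 ± 939 against 14823 ± 5263 (SD, n = 3). The difference of 0.51 (SE 0.23) did not pass (limma, adjusted p = 0.229), and it was 0.22 (0.453) without VV3 and 0.75 (0.0557) without VV1.

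Libraries varied in ways the groups do not explain. By normalised reads, VV3 was the lowest WT library for 6 of the 9 genes, although for DCX it had 2 reads, as VV1 had. VV2 was the highest WT library for DCX, DCLK1, DCLK2 and MAP6 and the lowest for MAP1A and MAP1B, so that for DCX, MAP1A and MAP1B it was the WT library nearest to knockdown. It was also the deepest library, and the part of depth in this was not tested.

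**Figure D3:**
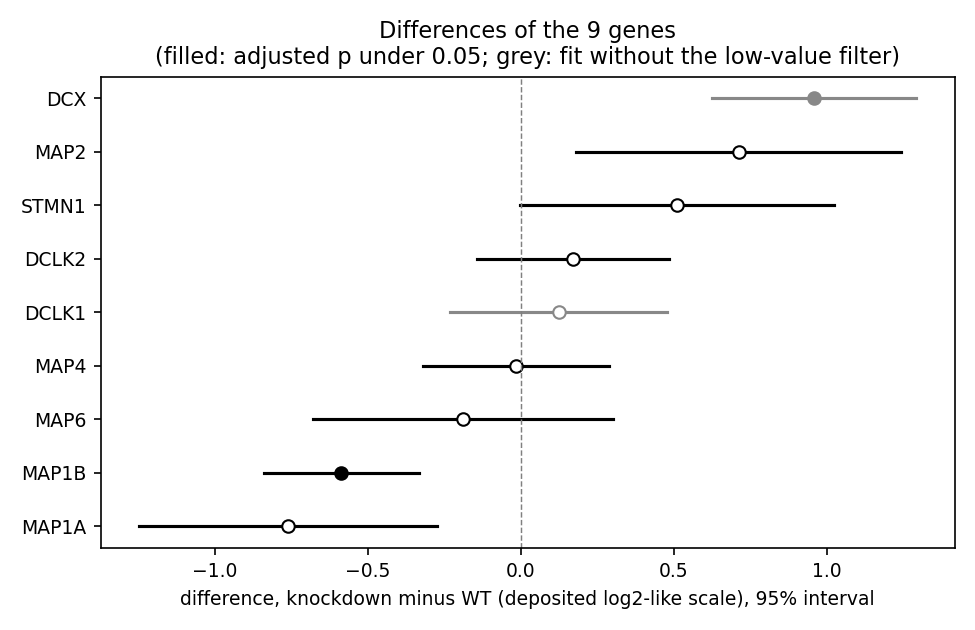
Difference of each gene, knockdown minus WT, on the deposited log2-like scale (points) with its 95% interval from limma (lines); filled points passed an adjusted p of 0.05 and grey ones come from the fit without the filter on low values. MAP1B at −0.59 and DCX at 0.96 are filled, and the intervals of DCLK1, DCLK2, MAP4, MAP6 and STMN1 include 0.

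Other genes of the microtubule system were described from 6 lists written by function, with earlier results of these data known. The lists held 111 genes, 91 of them past the filter. Of these 91, 5 fell and none rose, a share of 5.49% against the 4.1% called over all genes, with a median difference of −0.04 against 0.01. At an unadjusted p under 0.05, which 22.0% of all genes tested reached in either direction, 7 of the 91 were higher and 15 lower. Of the 5, 3 (TUBG2, PPP1R9B and CSNK1D) lie on the long arm of chromosome 17, where the median over 578 genes was −0.33 and 88.9% were lower. Without KD1, KD2 or KD3 none of the 5 was called, without VV2 PPP1R9B alone was called, and CAMSAP2 was called in none of the 6 fits with a library left out.

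In the list of other structural MAPs and stathmins, 4 of 13 genes were higher and 9 lower (median −0.14), and 1 fell. This was CAMSAP2, which caps and stabilises microtubule minus ends. It had 3638, 3783 and 3601 normalised reads in WT and 2292, 2954 and 2464 in knockdown (difference −0.51, SE 0.12, limma adjusted p = 0.0466). STMN3, a neuronal stathmin, followed STMN1 in direction with 1919 normalised reads in WT and 2884 in knockdown, and did not pass (limma, adjusted p = 0.115). It was named after its value was seen, as was STMN2, the neuronal stathmin of axon growth, which averaged 7.34 and 5.64 normalised reads.

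Among tubulins, the subunits of the microtubule, 4 of 13 were higher and 9 lower (median −0.07), and 1 fell. TUBG2, a gamma-tubulin of the nucleating ring, had 741, 744 and 875 normalised reads in WT and 474, 417 and 498 in knockdown (difference −0.65, SE 0.12, limma adjusted p = 0.0235). TUBG1 and TUBG2 are close copies, as are the TUBA1 genes, so reads could have been split between them. TUBB3, the neuronal beta-tubulin, did not pass the filter and averaged 22.9 normalised reads in WT and 9.94 in knockdown; it was named after its value was seen.

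Kinases and phosphatases that act on tau, doublecortin or other MAPs were higher in 7 and lower in 17 of 24 cases (median −0.10), and 3 fell. PPP1R9B, spinophilin, which brings protein phosphatase 1 to doublecortin, had 3682, 3313 and 4212 normalised reads in WT and 2392, 2499 and 2245 in knockdown (difference −0.62, SE 0.12, limma adjusted p = 0.0257). MAPK10, the neuronal JNK3, had 309, 371 and 294 in WT and 193, 197 and 173 in knockdown (−0.57, SE 0.13, adjusted p = 0.0399 by limma). CSNK1D, casein kinase 1 delta, a tau kinase, had 4265, 4824 and 4934 in WT and 3606, 3145 and 3083 in knockdown (−0.50, SE 0.12, limma adjusted p = 0.0448).

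The remaining lists had no call (limma). At an unadjusted p under 0.05 they held 2 higher and 2 lower, 1 and 0, and 1 and 3 genes, in the order given here. Over all genes tested, 22.0% reached that p in either direction. Among 21 tubulin-modifying and severing enzymes 14 were higher and 7 lower (median 0.06), and the largest difference was that of KATNAL2, a katanin-like protein (0.48, limma adjusted p = 0.185). Among 13 migration and dynein partners of doublecortin 5 were higher and 8 lower (median −0.03), with the largest in NFASC, a cell adhesion molecule of axons (0.55, adjusted p = 0.245 by limma). Of 7 neural intermediate filament genes 3 were higher and 4 lower, with a median of −0.51. NEFH, the heavy neurofilament chain, had 35303, 13155 and 19513 normalised reads in VV1, VV2 and VV3 and 12998, 11985 and 10929 in KD1, KD2 and KD3. The groups did not overlap, though VV2 lay just above KD1, and the difference of −0.80 (SE 0.29) did not pass (limma, adjusted p = 0.142).

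**Figure D4:**
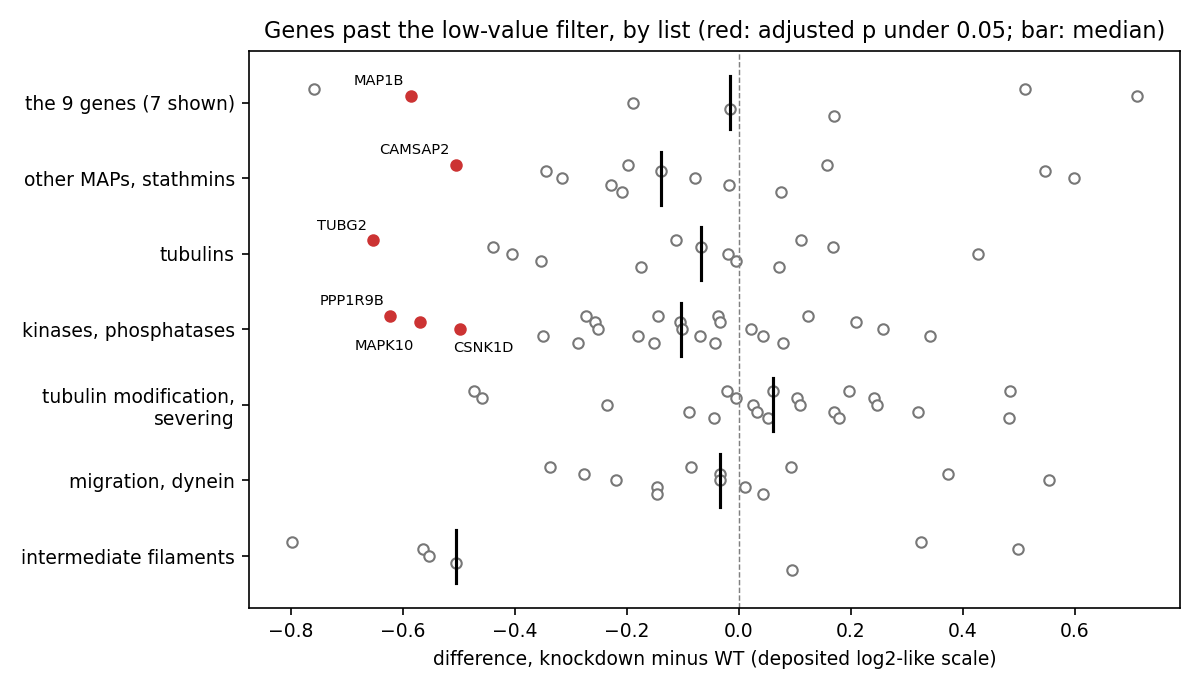
Differences of single genes past the filter, knockdown minus WT on the deposited log2-like scale, by list, with the median as a black bar and called genes in red. The called genes MAP1B, CAMSAP2, TUBG2, PPP1R9B, MAPK10 and CSNK1D all lie left of 0, between −0.50 and −0.65, and the intermediate filaments have a median of −0.51.

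Markers of other cell types were checked beside these results. Of the 5 Group 3 and 4 medulloblastoma markers past the filter, 3 were higher and 2 lower in knockdown (median 0.13). NPR3 alone was called, and it fell from 13052 ± 1708 to 7759 ± 1682 normalised reads (SD, n = 3, limma adjusted p = 0.0437). Of the astrocyte, fibroblast and endothelial markers past the filter, 1, 3 and 2 genes, none was called and none reached an unadjusted p under 0.05 (limma). NCAM1 was the neuron marker with the largest difference, −0.73 (limma, adjusted p = 0.0621). Summed over their lists, astrocyte markers reached 477 to 1069 normalised reads in WT and 582 to 694 in knockdown, fibroblast markers 993 to 1303 and 716 to 1023, endothelial markers 162 to 251 and 159.9 to 313, and the 4 immune markers 7.32 to 27.6 and 0 to 8.58. The part of any of these in the differences of the 9 genes was not tested.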

How the data were processed

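The submitters' processing notes name STAR, DESeq, Trim Galore, CASAVA 1.8.2, FastQC and MultiQC, with GRCh38. How reads were counted, on which annotation, with or without strand and after which filters was not stated in them. The deposited values are on a log2-like scale, which the authors had normalised by library and variance-stabilised, going by the file's name and values. Inverting that function (offset 55.2) gave whole reads for 100% of values (tolerance 0.01), and hence depth, normalised reads and counting intervals. Exact intervals cover counting error only.

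Rows with a 6-library mean of 1 or more over the lowest value were tested with limma 3.58.1 in R 4.3.3. The fit used empirical Bayes with trend, two-sided, with Benjamini-Hochberg over all kept rows and a threshold of 0.05. It was also run on simulated data, with the filter only. That run does not bear on the fit without the filter, in which DCX was called. With 3 libraries a group, the smallest exact permutation p is 0.1. The genes and lists were chosen with earlier results of these data known. All 9 genes, MSI1, MSI2, and up to 4 called genes per list, or else the gene with the largest difference, are named; others are said to be named after their values were seen. Alternatives were other filters, scalings, variance models, a block for the replicate number, library weights, voom on recovered reads (with median-ratio scaling in place of TMM), a minimum difference, and leaving out each library; for DCX and DCLK1 these were repeated without the filter, a choice made after seeing the data. Gene coordinates and exon lengths are GENCODE 29, matched by name. The result of 1 marker list is not reported here.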

Additional observations from a re-analysis of the deposited data

How the results depend on the processing

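Of the 7 genes past the filter, 1 was called (MAP1B), 2 with library weights and none with the replicate number as a block. None was called with a minimum difference of 0.5, and 0 to 1 with a library left out. Of all 9 genes, 3 were called without the filter. In fits without the filter, DCX was called with the block (limma, adjusted p = 0.00207) and with library weights (0.00463). There DCX was not called with the minimum difference, and was called in 5 of 6 fits with a library left out. The 5 companion genes became 3 without the filter, with quantile normalisation and without a variance trend, 8 with library weights, 1 with the block, 0 with the minimum difference and 0 to 7 with a library left out. The 556 calls over the table became 1213 with library weights, 221 with the replicate block, 1 with the minimum difference and 56 to 726 with a library left out (204 without VV2, 126 without KD2, 92 without KD3). Whether the numbers in the column headings pair the libraries is not stated in the labels. Deviations of same-numbered libraries correlated at −0.0045, −0.25 and 0.0046, and those of differently numbered ones at −0.14 to 0.18. With 3 libraries a group, these values do not settle the pairing. The blocked fit gave MAP1B an adjusted p of 0.0597 (limma). The cause of these shifts was not tested. MAP1B kept its direction in 16 alternatives and its call in 10. DCX kept its direction in 14 and its call in 11. MAP2 and STMN1 kept their direction and were called in none of 15 and 16. The MAP4 difference changed sign with library weights (0.068), without VV1 (0.071) and without KD2 (0.0503), and the MAP6 difference without VV2 (0.039). Depth limits DCX, DCLK1 and MAP2, with 2 to 130 reads per library.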

Other observations

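Some rows near these genes were listed at or near 0 reads. TUBB, a beta-tubulin that dividing cells use, had 2 to 9 reads per library, while TUBB4B averaged 11270 normalised reads in WT and TUBA1B 11037. Of the 9 genes listed as lying beside MAPT, 4 had a row and none passed the filter on low values: NSF, which disassembles SNARE complexes in all cells, had 0 to 18 reads per library, KANSL1 4 to 31, PLEKHM1 0 to 2 and WNT3 0 to 1. These genes were named after their values were seen. TUBB and the region around MAPT also have copies on alternate loci of GRCh38, and how reads that match several copies were counted is not stated in the labels. The values near 0 are therefore not read as low expression, and the cause was not tested.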
